A study of Mus musculus with 2 samples.

Results

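Trp53, the mouse gene of the p53 tumour suppressor, was examined together with 9 genes that regulate p53 or are known as its targets in cell cycle arrest and stress responses. The set was given by name: Trp53, its inhibitors Mdm2 and Mdm4, and Ccng1, Zmat3, Phlda3, Sesn1, Sesn2, Trp53inp1 and Gadd45a. All 10 were found among the 43346 Ensembl genes of the tables by their identifiers. The samples were 2 libraries of RNA, described as polyadenylated and read from both ends, from leukemia stem cells of the mouse. Per the labels, Friend virus had infected the cells, which were CD34+, CD133+, Kit+ and Sca1+ and came from a pool of both sexes aged 10 to 12 weeks, of strains with the sensitive Fv2 allele. Both libraries belong to 1 group, as biological replicates 1 and 2 that share a donor record, so there was no contrast between conditions and no test was made; part of their spread may be technical.

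p53 is a transcription factor that is held at a low level by Mdm2, a ubiquitin ligase, and by Mdm4, a relative of Mdm2 that binds p53 and blocks its activity. After DNA damage or other stress p53 accumulates and raises the transcription of genes that stop the cell cycle, repair DNA, adjust metabolism or start cell death, and Mdm2 itself is one of these targets. In erythroleukemia caused by Friend virus, loss or mutation of Trp53 is a known late step of the disease. The tables hold no base-level calls, so mutations of Trp53 were not analysed here.

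The libraries held 23575315 and 22541765 expected counts, that is, fragments as estimated by the quantification. Transcripts of the sort markers were scarce: Prom1, the gene of CD133, was seen with 3 counts in replicate 1 only (a count of 0 leaves room for 0.0466 TPM in the other library), Cd34 had 1.80 and 0.270 TPM, Kit 1.81 and 1.06 TPM, and Ly6a, which encodes Sca1, 1.45 and 2.15 TPM. The scarcity of these RNAs goes against the label of CD34+, CD133+, Kit+ and Sca1+ cells. The levels of the marker proteins were not measured here. The values are therefore those of libraries so labelled. Globin genes took 11.0% of TPM, the deposited abundance corrected for transcript length and library size, in replicate 1 and 22.2% in replicate 2. The summed level of 15 erythroid marker genes was 113144 and 224579 TPM, that of 9 B lineage genes 750.1 and 311 TPM, and that of 12 macrophage genes 1037 and 1385 TPM. The macrophage sum was mostly the complement genes C1qa, C1qb and C1qc, while the list's median log2 ratio was −0.40, and beyond 2-fold there were 4 genes toward replicate 1 and 1 toward replicate 2. The part of these differences in the ratios given below was not tested, and fewer cells of a type and less RNA per cell cannot be told apart in such bulk samples.

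Transcripts of p53 and of most of the other 9 genes were plentiful. A level of 1 TPM or more in both libraries was reached by 9 of the 10 genes, against 41.6% of 21461 nuclear protein-coding genes, and the median of their mean levels was 36.2 TPM, against 0.545 TPM over all those genes. Ccng1, Trp53 and Gadd45a led with means over 100 TPM, Mdm4, Sesn2, Mdm2 and Phlda3 lay between 19.1 and 54.5 TPM, and Zmat3, Sesn1 and Trp53inp1 were under 5 TPM.

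**Figure D1:**
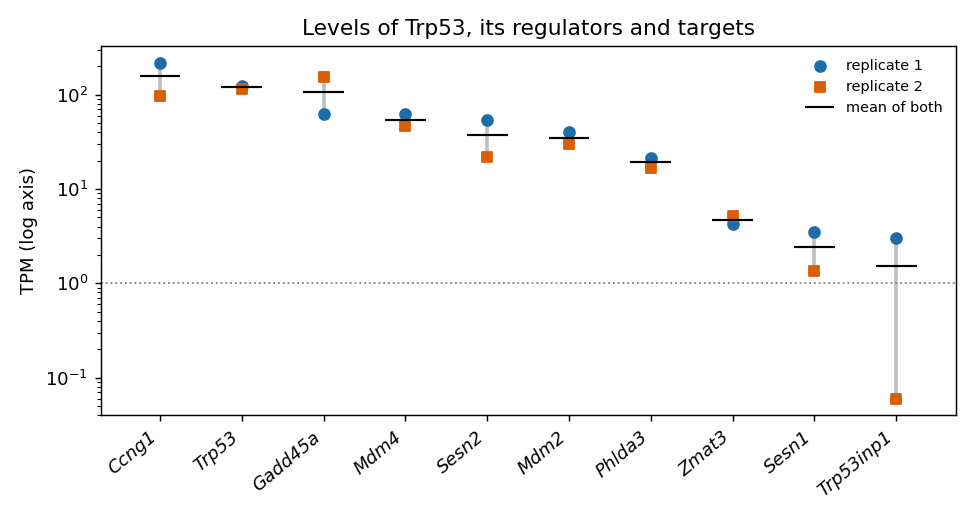
Deposited TPM (log axis) of each gene in replicate 1 (circles) and replicate 2 (squares), ordered by the mean of both (bars); the dotted line marks 1 TPM. The 2 values of Trp53 lie close together at 125 and 114 TPM, while those of Trp53inp1 lie far apart at 2.99 and 0.0600 TPM.

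Trp53 (ENSMUSG00000059552.9, chromosome 11, 69580359 to 69591873 on mm10, plus strand) had 125 TPM in replicate 1 and 114 TPM in replicate 2, a mean of 119.8 ± 7.53 TPM (SD, n = 2). Relative to its mean, this was the smallest spread among the 10 genes. The level lay above that of 95.3% of protein-coding genes. It rested on 3781 and 2512 expected counts. Scaled by TMM, a method that sets libraries on a common scale by the bulk of their genes, the count ratio of replicate 2 to replicate 1 was −0.12 on the log2 scale, with an exact 95% interval of −0.19 to −0.05 that covers counting error only. The median of all genes was −0.06, so Trp53 lay near the middle of the distribution.

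The near-equal TPM of Trp53 joined a lower count with a shorter average transcript. Relative to the total, the count was lower in replicate 2, with a log2 ratio of −0.53. The median of all genes on that scale was −0.47, so the lower count was close to that of genes in general. The log2 ratio of TPM was −0.13 for Trp53, against a median of −0.45. The authors' effective length of the gene, the length that the TPM divides by, was 1529.7 bases in replicate 1 and 1105 bases in replicate 2, a log2 ratio of −0.47. That length is an average over the gene's transcripts, weighted by their estimated shares, and the shares differed between the libraries.

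Of the 6 Trp53 transcripts in the tables, 4 are annotated as coding and 2 as processed transcripts. The coding ones end in either of 2 ways. In Trp53-201 and Trp53-203 the last exon begins at position 69591350, and in Trp53-202 and Trp53-206 it begins 96 bases earlier, at 69591254, which replaces the coding end. The C-terminal end that p53 has in its regular form is a basic regulatory region, and the mouse form with the replaced end is known as the alternatively spliced p53. The coding ends are shown because the choice between them divides the coding forms into 2 kinds that differ in sequence; lower case marks the last 30 bases of the exon they share, and capitals mark the last coding exon through the stop codon, from the GENCODE transcripts on GRCm38, plus strand, chr11:69591350-69591431 for Trp53-201 and chr11:69591254-69591308 for Trp53-202.
Trp53-201: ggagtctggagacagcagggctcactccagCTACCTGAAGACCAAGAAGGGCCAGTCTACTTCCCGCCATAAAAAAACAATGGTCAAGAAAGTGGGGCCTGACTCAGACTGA
Trp53-202: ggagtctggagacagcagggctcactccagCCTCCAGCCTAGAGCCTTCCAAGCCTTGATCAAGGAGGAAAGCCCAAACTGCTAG
The regular end has 79 coding bases in this exon and the alternative end 52, before the stop codon. The annotated coding sequences have 387 codons in Trp53-201, 390 in Trp53-203, 378 in Trp53-202 and 381 in Trp53-206, without the stop.

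Both ends were present in both libraries at similar levels. The alternative end took 44.4% of the TPM of coding Trp53 transcripts in replicate 1 and 52.9% in replicate 2, or 43.7% and 52.7% by the authors' posterior mean TPM and 45.2% and 53.6% of the expected counts. In TPM, the regular end had 59.6 and 28.8, and the alternative end 47.7 and 32.3. All counts of the alternative end, 1592 and 1079, were assigned to Trp53-202, and Trp53-206 had 0 counts in both. The posterior intervals of Trp53-202 overlapped between the libraries, at 34.3 to 55.5 TPM and 26.4 to 35.0 TPM. These intervals are the authors', they belong to the posterior mean TPM, and the sources used here do not give what share of the posterior they span.

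The split between Trp53-201 and Trp53-203, in contrast, was poorly determined. Trp53-203 is identical to the first 1771 of the 1772 bases of Trp53-201, so they differ by 1 base at the 3′ end, and the annotated coding sequences differ only in which start codon is used. The tables gave Trp53-203 1783 counts in replicate 1 and 0.78 in replicate 2, and Trp53-201 147 and 933 counts. The posterior intervals ran from 0.133 to 54.9 TPM and from 0.834 to 22.4 TPM for Trp53-203, and from 2.51 to 56.0 TPM and from 5.50 to 27.7 TPM for Trp53-201. Each interval in replicate 1 thus covered nearly the whole regular-end level. The TPM of Trp53-203 in both libraries and that of Trp53-201 in replicate 2 lay outside these intervals, which belong to the posterior mean TPM. Summed, the pair made up 47.7% (replicate 1) and 25.2% (replicate 2) of Trp53 TPM, and 48.2% and 25.2% by the posterior mean shares.

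The short processed transcript Trp53-204 was the form whose level differed most clearly. It had 14.9 TPM (interval 10.9 to 18.2) in replicate 1 and 49.5 TPM (41.7 to 54.3) in replicate 2. Of the 6 Trp53 transcripts it alone had intervals that did not overlap. Across the 10 genes, 19 of 49 transcripts had such intervals, and the share over all transcripts was not calculated. Trp53-204 is 403 bases long and 324 of them lie in exons of the coding transcripts, while the other 79 are 1 whole intron that it retains. Its counts were 79.7 and 258, only 2.11% and 10.3% of the gene's counts, but 11.9% and 43.2% of the gene's TPM, since TPM divides by a short length. Trp53-205, in which introns are also kept, had 2.88 and 3.88 TPM, with 2177 of its 3275 bases outside the coding exons. By the tables' estimates the coding transcripts together had 107 TPM in replicate 1 and 61.1 TPM in replicate 2, a wider gap than that of the gene's TPM. Which of these bases reads covered was not analysed here.

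**Figure D2:**
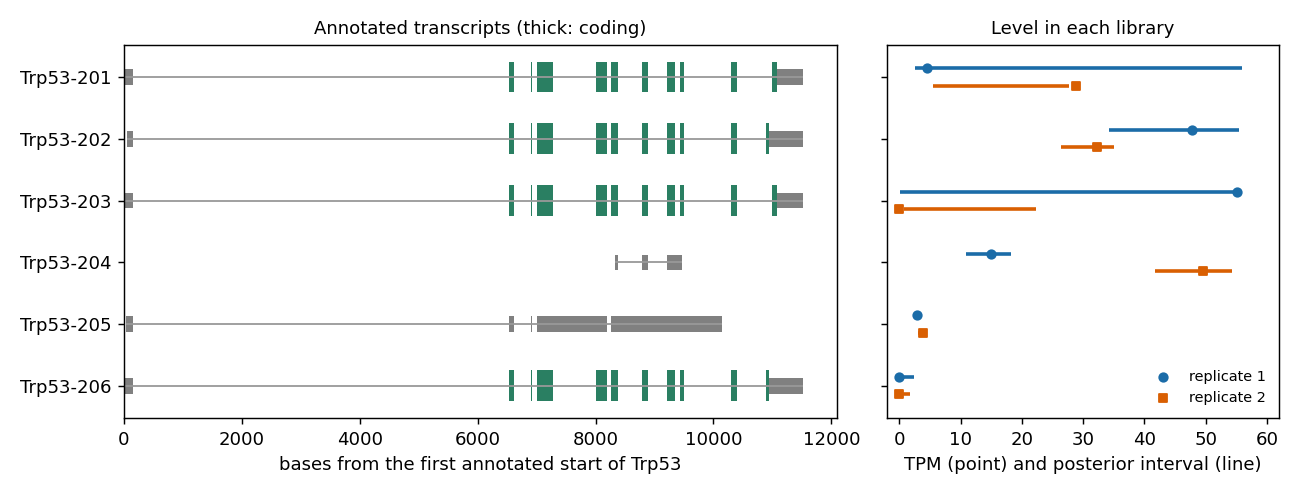
Left, exons of the 6 annotated Trp53 transcripts as distance in bases from the first annotated start (thick green, coding; thin grey, not coding); right, TPM in replicate 1 (blue circles) and replicate 2 (orange squares) with the authors' posterior interval (lines). The wide intervals of Trp53-201 and Trp53-203 overlap between the libraries, and those of Trp53-204, 10.9 to 18.2 and 41.7 to 54.3 TPM, do not.

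Mdm2 and Mdm4, the inhibitors of p53, were expressed in both libraries with a ratio close to that of all genes. Mdm4 (ENSMUSG00000054387.9, chromosome 1, 132959484 to 133030561, minus strand) had 62.2 TPM in replicate 1 and 46.8 TPM in replicate 2. Mdm2 (ENSMUSG00000020184.10, chromosome 10, 117688875 to 117710758, minus strand) had 39.8 and 29.7 TPM. Mdm4 was above Mdm2 in each library, and the lowest Mdm4 value, 46.8 TPM, was above the highest Mdm2 value. The log2 count ratios of replicate 2 to replicate 1 were −0.22 (95% interval −0.37 to −0.08) for Mdm4 and −0.10 (−0.26 to 0.07) for Mdm2.

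The gap between the inhibitors came mostly from transcripts that are not annotated as coding. In Mdm4, the 496-base retained-intron transcript Mdm4-204 had 79.9% and 81.2% of Mdm4 TPM, from 357 and 268 counts. Its posterior intervals, 42.3 to 53.6 TPM and 31.6 to 41.9 TPM, lay close together without overlap. Only 40 of its bases lie outside the exons of coding Mdm4 transcripts. The coding transcripts of Mdm4 summed to 8.86 and 7.83 TPM, or 8.34 ± 0.728 TPM (n = 2), and those of Mdm2 to 8.60 and 5.37 TPM, or 6.98 ± 2.28 TPM, so that Mdm4 was still the higher in each library but the ranges of the 2 genes overlapped. Counted in fragments rather than TPM, coding transcripts held 60.0% and 51.2% of Mdm4 and 64.8% and 60.0% of Mdm2.

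The coding part of each inhibitor lay almost wholly in 1 or 2 transcripts. Mdm4-201, a coding transcript of 490 codons, had 5.71 and 7.24 TPM, with overlapping intervals. The long Mdm4-210, of 7105 bases and 489 codons, had 3.15 TPM (interval 2.72 to 3.38) and 0.550 TPM (0.396 to 0.699), which did not overlap. Mdm2-201, of 489 codons, had 8.60 and 5.37 TPM with overlapping intervals, and was the only coding Mdm2 transcript with counts. The leading Mdm2 transcript was Mdm2-207 in replicate 1, with 16.3 TPM against 5.24, and Mdm2-208, which retains an intron, in replicate 2, with 11.9 TPM against 2.82. For both, the intervals did not overlap. Mdm2-207 begins inside the first intron of Mdm2-201, where the p53-responsive promoter of Mdm2 is known to lie, and 264 of its 499 bases lie outside the coding exons.

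Ccng1, which encodes cyclin G1, a p53 target that brings a phosphatase to Mdm2, was the most abundant of the 10 genes by mean level. Ccng1 (ENSMUSG00000020326.7, chromosome 11, 40748552 to 40755311, minus strand) had 218 TPM in replicate 1 and 97.6 TPM in replicate 2, above 96.4% of protein-coding genes on average. It was higher than Trp53 in replicate 1 and lower than Trp53 in replicate 2, so the order of these 2 genes was not settled. Its log2 count ratio was −0.68 (−0.72 to −0.64), from 14534 and 6536 counts. All of these were assigned to its coding transcript Ccng1-201, of 294 codons.

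The start of Ccng1 held a match to the p53 binding consensus. That consensus is a pair of adjoining half-sites of 10 bases, each with the core CNNG, and a match was counted on either strand with both cores intact and at most 2 of the 20 bases different. RefSeq promoter windows on GRCm38.p6, each of 250 bases before to 50 bases after a gene start, were found for 8 of the 10 genes, in 10 windows. A match was present in 1 of these windows, that of Ccng1, and in 107 of all 32851 windows, or 0.326%. The Ccng1 match lies at chr11:40755462-40755481, begins at −195 relative to the RefSeq start and differs from the consensus in 1 base. It is shown in capitals within the upstream sequence on the minus strand, chr11:40755312-40755536, since it was the only match among the genes studied.
Ccng1: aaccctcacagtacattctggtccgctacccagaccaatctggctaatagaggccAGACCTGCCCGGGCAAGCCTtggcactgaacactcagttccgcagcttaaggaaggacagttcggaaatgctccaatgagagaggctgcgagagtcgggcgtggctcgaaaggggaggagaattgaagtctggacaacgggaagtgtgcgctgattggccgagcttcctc
The match describes the sequence and says nothing on binding. Response elements of p53 often lie in introns, outside these windows. Beyond the windows, only the first 300 bases of Mdm2-207 and the last 300 of the retained-intron transcript Gadd45a-202 were searched. Neither stretch held a match.

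Gadd45a, a stress sensor that restrains the entry into mitosis, was the one gene of the set that was clearly higher in replicate 2. Gadd45a (ENSMUSG00000036390.6, chromosome 6, 67035096 to 67037457, minus strand) had 62.8 TPM in replicate 1 and 152 TPM in replicate 2, with 849 and 2045 counts. The log2 count ratio was 1.74 (1.62 to 1.86), and 4.04% of the genes tested had a higher one. Under each of the scalings tried the ratio stayed beyond 2-fold. In replicate 2, Gadd45a was the most abundant of the 10 genes, and in replicate 1 it was the third.

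All but 1 of the Gadd45a transcripts in the tables are annotated as retaining introns. The coding transcript Gadd45a-201, of 165 codons, had 10.1 TPM (interval 7.63 to 12.1) in replicate 1 and 30.9 TPM (25.9 to 33.2) in replicate 2, so the coding form was also higher there. It made up 16.1% and 20.3% of the gene's TPM, and 25.6% and 32.5% of its counts. The largest difference was that of Gadd45a-203, with 13.0 TPM (9.58 to 15.8) and 79.4 TPM (69.8 to 83.0). Gadd45a-204 went the other way, with 23.4 TPM (18.1 to 27.0) and 11.4 TPM (8.08 to 15.2). These forms share most of their bases with the coding exons, 534 of 703 in Gadd45a-203 and 655 of 744 in Gadd45a-204. On the opposite strand, E230016M11Rik shares 337 exonic bases with Gadd45a and had 16 counts in each library. The other overlapping genes, Gm29257 at Mdm4, Gm12981 at Sesn2 and 9930024M15Rik at Sesn1, share no exonic bases with them.

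The sestrins restrain the growth kinase mTORC1 under stress, and their genes did not share a direction. Sesn2 (ENSMUSG00000028893.8, chromosome 4, 132492032 to 132510501, minus strand) had 53.6 TPM in replicate 1 and 21.7 TPM in replicate 2, and a log2 count ratio of −0.83 (−0.92 to −0.74). Sesn1 (ENSMUSG00000038332.8, chromosome 10, 41809935 to 41908424, plus strand) had 3.53 and 1.36 TPM, from 172 and 68 counts, with a ratio of −0.86 (−1.29 to −0.45). Sesn2 was more than 10 times as abundant as Sesn1 in each library. Neither interval lay wholly beyond 2-fold. Sesn3, the remaining sestrin gene, was higher in replicate 2, with 2.59 and 6.43 TPM and a ratio of 1.78 (1.45 to 2.12). With total-count scaling the ratio of Sesn2 was −1.24 and passed the 2-fold limit, and that of Ccng1 was −1.09 and also passed it.

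Phlda3 and Zmat3 had count ratios close to 0. Phlda3 (ENSMUSG00000041801.5, chromosome 1, 135766119 to 135769136, plus strand), which encodes a small inhibitor of the survival kinase AKT, had 21.5 TPM in replicate 1 and 16.6 TPM in replicate 2 and a log2 count ratio of 0.10 (−0.08 to 0.29). Zmat3 (ENSMUSG00000027663.8, chromosome 3, 32334792 to 32366014, minus strand), which encodes an RNA-binding zinc finger protein, had 4.23 and 5.15 TPM and a ratio of −0.07 (−0.29 to 0.16). For both genes the sign differed between measures: Phlda3 had a TPM ratio of −0.37, and Zmat3 one of 0.28.

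The TPM of Zmat3 drew much of its size from a short transcript. Zmat3-202, of 440 bases and annotated with an unfinished coding end, was given 8.85 counts in replicate 1 and 19.1 in replicate 2. It held 34.4% and 62.5% of the gene's TPM from 2.15% and 6.74% of its counts. Its posterior intervals overlapped. The effective length of the gene was 4928 bases in replicate 1 and 2778 bases in replicate 2. The full-length coding transcript Zmat3-201, of 290 codons, had 2.56 TPM (interval 2.20 to 2.70) and 1.57 TPM (1.31 to 1.70), lower in replicate 2.

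Trp53inp1, which encodes a nuclear stress protein that promotes the death-inducing activity of p53, was the least abundant of the genes and the most uneven. Trp53inp1 (ENSMUSG00000028211.7, chromosome 4, 11156431 to 11174379, plus strand) had 2.99 TPM in replicate 1 and 0.0600 TPM in replicate 2, from 129 and 6 counts. The log2 count ratio was −3.85 (−5.43 to −2.79), and 1.78% of the genes tested had a lower one. In replicate 1, 75.2 of the counts were assigned to the processed transcript Trp53inp1-204 and 48.1 to the coding Trp53inp1-201, of 239 codons. In replicate 2 the coding transcript had 0 counts.

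Across the 10 genes, TPM was higher in replicate 1 for 8 and higher in replicate 2 for Gadd45a and Zmat3. All 10 had 20 or more counts over both libraries. With an interval wholly beyond 2-fold, 1 gene, Gadd45a, was higher in replicate 2, against 8.76% of 12542 genes, and 1 gene, Trp53inp1, was higher in replicate 1, against 15.1%. In either direction this was 2 of 10 genes, against 23.9% of all genes, a share near the background. The median log2 ratio of the 10 genes was −0.17, against −0.06 for all genes. Among all genes with such an interval, the share that was higher in replicate 2 was 36.7%, and it became 13.2% under total-count scaling. Ratios of TPM have no interval, so the ratio alone was held to the 2-fold limit, and the share was 20%. By that rule 41.7% of all genes were beyond 2-fold, against 23.9% with intervals. The median of all genes moved to −0.47 with total counts and to −0.45 with ratios of TPM. With ratios of TPM, 4 of the 10 genes were more than 2-fold higher in replicate 1, against 4187 of all 12542 genes. These 4 were Ccng1, Sesn1, Sesn2 and Trp53inp1.

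**Figure D3:**
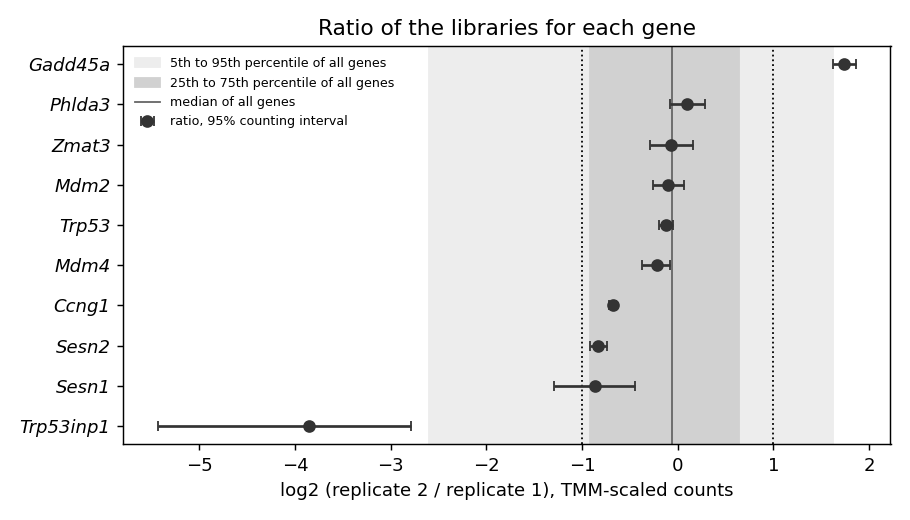
Log2 ratio of replicate 2 to replicate 1 for each of the 10 genes (points) with the exact 95% counting interval (bars), over the 25th to 75th percentile (dark band) and the 5th to 95th percentile (light band) of all genes; dotted lines mark 2-fold. Gadd45a at 1.74 and Trp53inp1 at −3.85 have intervals wholly beyond 2-fold, and the other 8 genes do not.

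The genes also varied in how much of their TPM was in coding transcripts. Of the 8 genes with more than 1 annotated transcript and 1 TPM or more in both libraries, 3 had under 50% of their TPM in coding transcripts in both, against 22.4% of 6747 such protein-coding genes. These were Mdm4 (14.2% and 16.7%), Mdm2 (21.6% and 18.1%) and Gadd45a (16.1% and 20.3%). The median over those genes was 92.5% in replicate 1 and 93.2% in replicate 2. The leading transcript differed between the libraries in 4 of the 8 genes, Trp53, Mdm2, Gadd45a and Zmat3, against 31.0%. Retained-intron transcripts held 27.6% of the TPM of all these genes in replicate 1 and 35.2% in replicate 2. By coding TPM alone, Ccng1 had 218 and 97.6, Trp53 107 and 61.1, Sesn2 53.6 and 21.7, Phlda3 21.5 and 16.6, Gadd45a 10.1 and 30.9, and Mdm4 and Mdm2 under 9, so that Gadd45a and Mdm4 no longer stood above Sesn2 on average.

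**Figure D4:**
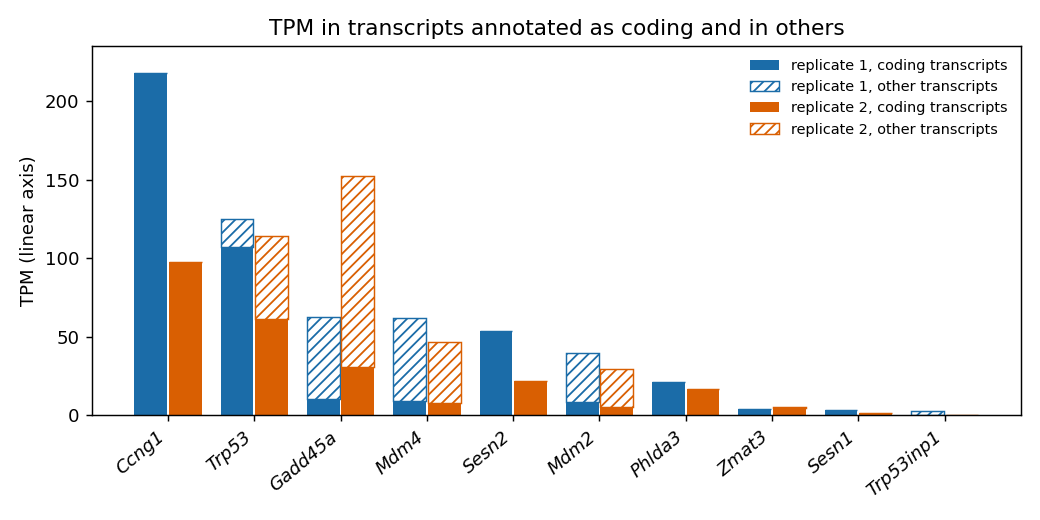
TPM (linear axis from 0) of each gene in replicate 1 (blue) and replicate 2 (orange), divided into transcripts annotated as coding (solid) and all others (hatched). Most of the bar is hatched in Gadd45a, Mdm4 and Mdm2, and the coding part of Trp53 is 107 and 61.1 TPM.

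The order of the 10 genes by mean TPM was settled only in part. The values of the 2 libraries overlapped between the neighbours Ccng1 and Trp53, Trp53 and Gadd45a, Mdm4 and Sesn2, Sesn2 and Mdm2, and Sesn1 and Trp53inp1. Gadd45a and Mdm4 did not overlap, but in replicate 1 they lay at 62.8 and 62.2 TPM, with posterior intervals of 56.4 to 65.6 and 55.1 to 66.3 TPM that did. The library values did not overlap between Mdm2 and Phlda3, Phlda3 and Zmat3, and Zmat3 and Sesn1.

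Other genes of the p53 pathway were described with 7 lists holding 72 genes outside the set. Of these, 53 had 1 TPM or more in both libraries, against 41.6% of nuclear protein-coding genes, and none had 0 counts in both. Among the 66 with 20 or more counts, intervals wholly beyond 2-fold were found for 8 genes toward each library, or 24.2%, near the 23.9% of all genes. The median log2 ratio of the 66 was 0.11.

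Among the genes closest to p53, Wrap53, the neighbour of Trp53 that is transcribed from the opposite strand, had 44.2 TPM in replicate 1 and 6.65 TPM in replicate 2, a log2 count ratio of −2.60 (−2.83 to −2.38). It was the 1 gene of 6 tested in the family and core list with an interval wholly beyond 2-fold, or 16.7% against 23.9% of all genes. Ppp1r13l, which encodes the p53 inhibitor iASPP, had 18.3 and 23.1 TPM. Trp63, a p53 relative, had 11 and 0 counts, and Trp73 had 0.740 and 1.69 TPM. Of the 11 genes listed for p53 turnover and checks, Rpl11 had 1380.0 and 668 TPM. Its protein binds Mdm2 when ribosome assembly is disturbed. Cop1, a further ubiquitin ligase for p53, had 133 and 85.0 TPM. In that list Kat5, an acetyltransferase gene (1.16), and Mdm1 (1.41) were higher in replicate 2. Rpl5, a partner of Rpl11 (−1.94), and Huwe1, a ubiquitin ligase gene (−1.24), were higher in replicate 1. Together they made up 36.4% of the list, against 23.9% of all genes. Mdm1 encodes a microtubule-binding protein and is counted here only because the list holds it. Kat5 and Mdm1 no longer passed the 2-fold limit with total counts (0.76 and 1.01) or ratios of TPM (0.69 and 0.99), nor Huwe1 with ratios of TPM (−0.96).

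Of 7 kinases that signal to p53, 2 had 1 TPM or more in both libraries, against 41.6% of nuclear protein-coding genes. Atm had 3.55 and 0.660 TPM, Atr 1.73 and 0.740, Chek1 2.58 and 0.770, Chek2 2.37 and 0.860 and Prkdc 1.22 and 0.550 TPM. All 5 were under 1 TPM in replicate 2. Atm was the 1 kinase of the 7 with an interval wholly beyond 2-fold, at −2.03 (−2.63 to −1.50), or 14.3% against 23.9% of all genes. Csnk1a1, which encodes casein kinase 1 alpha, had 169 and 165 TPM and Hipk2 57.1 and 69.1 TPM. The list median of 7 kinases was −0.98.

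Arrest targets had a list median of 0.88 over 11 tested genes, and 4 had intervals wholly beyond 2-fold, or 36.4% against 23.9% of all genes. The list was not divided by whether p53 raises or lowers a gene. Cdkn1a, which encodes the CDK inhibitor p21, had 75.6 and 43.2 TPM and a log2 ratio of −1.0 (−1.13 to −0.87). Psrc1 had 66.3 and 61.4 TPM. The paralogs of Gadd45a were both higher in replicate 2: Gadd45b at 3.84 and 7.88 TPM (1.5, 1.12 to 1.89) and Gadd45g at 9.53 and 36.2 TPM (2.39, 2.15 to 2.64). With total-count scaling the interval of Gadd45b, 0.72 to 1.49, reached within 2-fold, and those of Gadd45a and Gadd45g did not. Cdc25c, which encodes a cell cycle phosphatase, was also higher in replicate 2 (2.56), and Btg2, an antiproliferative gene, was higher in replicate 1, with 52.7 and 8.38 TPM (−2.18).

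The remaining targets covered metabolism, repair and cell death. In the metabolism and stress list, 12 of 14 genes had 1 TPM or more in both libraries, against 41.6% of nuclear protein-coding genes. Gpx1, which encodes a glutathione peroxidase, led the list at 282 and 191 TPM. Besides Sesn3, Gdf15, with 8.28 and 16.5 TPM, was higher in replicate 2 (1.57, 1.33 to 1.82), and Ei24, with 47.1 and 35.6 TPM, was higher in replicate 1 (−1.64, −1.84 to −1.45). Gdf15 no longer passed with total counts (1.16, 0.92 to 1.41), nor Ei24 with ratios of TPM (−0.40). Dram1 was also higher in replicate 1, with 41 counts against 0 and a log2 ratio whose upper limit was −2.94. With these 4 genes the list had 28.6% of its tested members beyond 2-fold, against 23.9%. Of 6 tested repair targets 1 was beyond 2-fold (16.7%), Pcna, the replication clamp, at 85.5 and 13.8 TPM (−2.17). Fancc, the next in level, had 5.53 and 2.77 TPM. Among cell death targets, Bbc3, which encodes PUMA, had 194 and 555 TPM (1.70, 1.63 to 1.77) and Bax 156 and 74.5 TPM (−0.61, −0.71 to −0.50). Bbc3 was the 1 gene of 11 tested death targets with such an interval, or 9.09% against 23.9% of all genes.

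**Figure D5:**
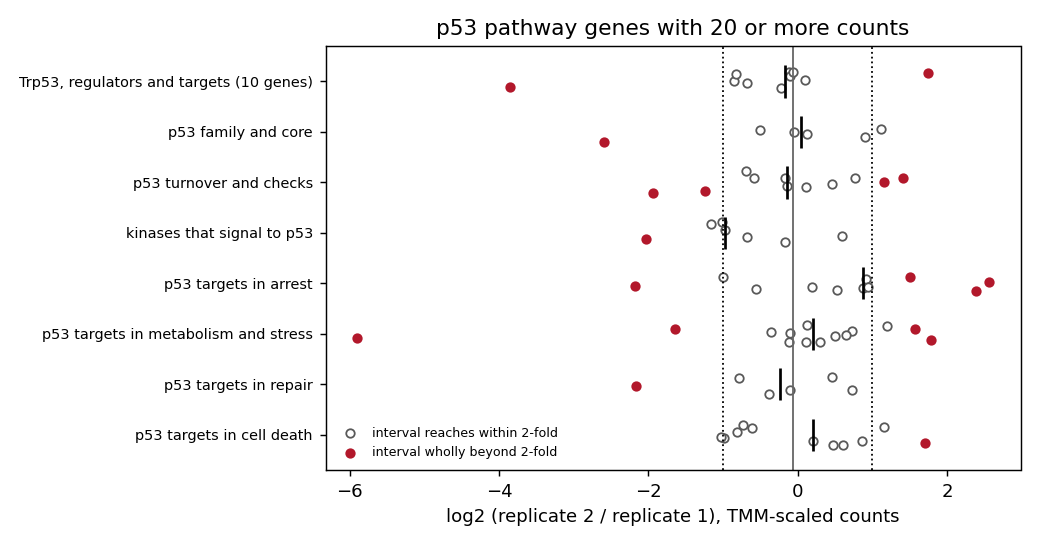
Log2 ratio of replicate 2 to replicate 1 of each p53 pathway gene with 20 or more counts, by list, with the 10 genes of the set on top; filled points have a counting interval wholly beyond 2-fold (dotted lines), black ticks are list medians and the grey line is the median of all genes at −0.06. The arrest list has its median at 0.88 and the kinase list at −0.98; the point farthest to the left is Dram1, whose value depends on the prior count since replicate 2 had 0 counts.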

How the data were processed

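The authors deposited 1 gene table and 1 transcript table per library, which per the readme use the mm10 assembly and the M4 release of GENCODE; column names are those of RSEM, and for the aligner nothing is given in the sources used here. The authors' expected counts are estimated fragments. The deposited TPM and FPKM values are normalised by length and depth, the deposited percent is a transcript's share of its gene's TPM, and the authors' posterior intervals and SD are in the unit of the signal described. Symbols, transcript types and positions came from GENCODE M21 on the same assembly, which matched 42462 of 43346 Ensembl identifiers; 46 of 49 transcripts of the set had the same length in both releases. The posterior SD of the gene count was 0 for all 10 genes, apart from 0.06 for Mdm4 in replicate 1.

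Expected counts were rounded to whole numbers and scaled with edgeR 4.0.16 (TMM factors 1.151 and 0.869), in R 4.3.3; ratios used a prior count of 0.5 and a Clopper-Pearson 95% interval. A gene was called apart when it had 20 or more counts over both libraries and an interval wholly beyond 2-fold. For ratios of TPM, which have no interval, the ratio itself had to be beyond 2-fold. The ratio script was tested on simulated data. With 1 group, p-values were not calculated. The 10 genes and all lists were chosen with earlier results of these data known. Named were the 10 genes, genes overlapping them, the sort markers, the 2 most abundant and all called genes of each pathway list, and Cdkn1a, Bax and Bbc3; Atr, Chek1, Chek2, Prkdc, Trp63 and Trp73 were added after their values were seen, and 1 gene that the rule names is not reported here. Of 73 pathway genes listed, 72 were matched. Alternatives were DESeq2 1.42.0 size factors, total counts with and without globins, TPM ratios, FPKM, posterior mean values, prior counts, limits, filters and single libraries. Software was Python 3.11.15, scipy 1.17.1 for intervals, pandas 2.3.3 and numpy 2.4.6 for tables and matplotlib 3.10.9 for plots.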

Additional observations from a re-analysis of the deposited data

How the results depend on the processing

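The levels of the 10 genes kept their order with posterior mean TPM, FPKM, TPM recomputed over protein-coding genes other than globins, and without replicate 2; without replicate 1, 4 genes took another rank. The recomputed TPM moved 5 of the 10 levels by more than their SD, that of Trp53 from 119.8 to 165 TPM. The other 5 stayed within their SD. Gadd45a and Trp53inp1 stayed beyond 2-fold in their directions under all 10 alternatives of scaling, quantity, prior count, limit and filter. Ratios of TPM were held to the 2-fold limit without an interval, so their numbers follow another rule than the rest. The number of the 10 genes higher in replicate 1 was 1, but 3 with total counts, 2 with total counts without globins, 3 with a limit of 1.5-fold and 4 with ratios of TPM. Of the pathway genes, 8 were higher in replicate 2, but 4 with either total-count scaling, 13 with 1.5-fold and 3 with 3-fold, and 8 were higher in replicate 1, but 13 with 1.5-fold, 5 with 3-fold and 20 with ratios of TPM. Of all genes, 1099 were higher in replicate 2, but 446 and 517 with total counts with and without globins, 2318 with 1.5-fold and 291 with 3-fold, and 1894 were higher in replicate 1, but 2921 with total counts, 2950 with 1.5-fold, 923 with 3-fold and 4187 with ratios of TPM. The cause of the shifts with scaling was not tested; the wider and narrower limits act by their construction. The mean share of Trp53-202 was 33.2% of TPM but 42.5% of the counts, that of Trp53-205 2.84% but 7.17% of the counts, and that of Trp53-206 0 but 0.615% by posterior mean shares. Leaving out 1 library, 9 or 10 of the 10 genes had 1 TPM or more. No paired analysis was possible because there was 1 group.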
